A study of Mus musculus with 6 samples.

Results

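Interferon-stimulated genes are the genes that a cell switches on after an interferon has bound its receptor. A list of 38 such genes was followed in the gastrocnemius muscle of young and aged mice. The rule that selects them goes by gene name and uses no measured value. A probe could be matched by accession for 36 of the 38 genes, out of 36710 genes and other transcripts with a probe on the array. No probe was matched to Mx1 or Mx2, which are therefore not analysed here. The probe of Oas3 stood above background on 0 of the 6 arrays, so this gene was not tested. The remaining 35 genes were tested, and 32 of them were well above background on all 6 arrays. The other 3 were Ifi44, Ifit2 and Irf7.

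Interferons are secreted proteins that warn cells of infection. Type I interferons and interferon-gamma act through receptors that carry kinases of the Janus family, and these phosphorylate STAT transcription factors. A complex that contains STAT2 and IRF9 binds a DNA element called the interferon-stimulated response element (ISRE), and signalling from interferon-gamma acts through the gamma-activated site (GAS). The genes under these elements encode sensors of foreign RNA and DNA, proteins that block viral replication, and large GTPases that attack the vacuoles of intracellular microbes. In skeletal muscle such genes are best known from inflammatory muscle disease.

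The young group was 3 male mice aged 13 weeks, and the aged group was 3 male mice aged 26 months. All were C57BL/6J mice, with no transgene and no drug treatment named in the labels, so the groups differed by age alone as far as the labels tell. Total RNA of the whole gastrocnemius, a mixed leg muscle, was labelled with Cy3 and read on 1 single-colour Agilent array per mouse. The values below are log2 processed signals minus the 75th percentile of the array, so that 0 is that percentile and each step of 1 is a factor of 2. A level on this scale can be compared between mice for the same gene, but not between genes, since each probe binds with its own strength.

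The sequences upstream of some of these genes carry the elements just described. A RefSeq promoter window (GRCm38.p6) was given for 27 of the 38 genes, and the 250 bases before the transcription start were searched on both strands. The core of the ISRE was written as GAAA, any 2 bases and GAAA, which on the other strand reads TTTC, any 2 bases and TTTC, and the GAS as TTCNNNGAA, which is its own reverse complement. Overlapping matches were counted separately. Of the 27 genes, 14 (51.9%) held an ISRE core, against 936 of all 27025 genes with a window (3.46%). A GAS was present in 6 of the 27 (22.2%), against 8.13% of all genes, and 4 (14.8%) held both, against 0.400% of all genes. A match is a string of letters and not a measured binding site. The 150 bases before the start are printed below, 5′ to 3′ on the strand of the gene, for 6 members chosen to show GTPases with lower and with higher means in aged mice, an oligoadenylate synthetase and Isg15. Capitals mark every ISRE core and GAS.
Gbp3 (chr3:142559894-142560043, plus strand): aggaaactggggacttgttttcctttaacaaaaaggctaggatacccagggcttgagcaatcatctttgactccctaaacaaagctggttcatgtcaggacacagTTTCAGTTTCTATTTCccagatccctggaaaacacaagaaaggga
Gbp2 (chr3:142620513-142620662, plus strand): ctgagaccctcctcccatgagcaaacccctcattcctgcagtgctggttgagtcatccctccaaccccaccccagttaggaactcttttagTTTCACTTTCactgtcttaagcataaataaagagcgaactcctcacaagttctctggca
Oas1a (chr5:120907526-120907675, minus strand): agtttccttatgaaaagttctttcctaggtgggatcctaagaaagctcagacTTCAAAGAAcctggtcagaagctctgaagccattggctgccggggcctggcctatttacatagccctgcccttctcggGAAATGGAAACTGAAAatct
Igtp (chr11:58199406-58199555, plus strand): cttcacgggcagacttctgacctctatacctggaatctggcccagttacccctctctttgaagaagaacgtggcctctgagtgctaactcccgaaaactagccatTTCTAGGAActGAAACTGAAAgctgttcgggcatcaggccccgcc
Irgm2 (chr11:58214827-58214976, plus strand): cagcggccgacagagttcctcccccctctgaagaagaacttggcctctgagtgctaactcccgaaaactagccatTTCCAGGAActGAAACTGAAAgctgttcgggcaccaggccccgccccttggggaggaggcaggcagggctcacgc
Isg15 (chr4:156200819-156200968, minus strand): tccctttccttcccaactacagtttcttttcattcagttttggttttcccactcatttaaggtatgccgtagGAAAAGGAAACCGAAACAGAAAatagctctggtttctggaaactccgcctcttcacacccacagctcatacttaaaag
The most distant ISRE match from the start lay 45 bases upstream in Gbp3, 59 in Gbp2, 20 in Oas1a, 34 in Igtp, 64 in Irgm2 and 78 in Isg15. Isg15 held 3 overlapping matches, and Gbp3 and Oas1a held 2 each. In Igtp and Irgm2, neighbouring genes on chromosome 11, a GAS stood next to the ISRE core, 45 and 75 bases before the start. These printed windows shared an identical stretch of 38 bases, and the windows of 250 bases shared 55. Gbp2 and Gbp3 are neighbours on chromosome 3.

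None of the 35 genes passed the test of aged against young mice across all genes. Their means were higher in aged mice for 20 genes and lower for 15, with log2 fold changes (aged minus young) between −0.77 for Gbp3 and 0.90 for Irgm2 in the 34 genes that were above background in mice of both ages. Ifi44 was above background in aged mice only, so its fold is a lower limit. In limma with Benjamini-Hochberg adjustment over 20901 genes, 0 of the 35 had an adjusted p under 0.05, while 53 of all genes tested (0.254%) did. The adjusted p of the 35 lay between 0.224 for Gbp3 and 0.993 for Irf1. The split between higher and lower depended on the scaling of the arrays. It was 13 higher and 22 lower when each array was set to its median in place of its 75th percentile, which moved the median of all genes from −0.06 to −0.21.

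At an unadjusted p under 0.05 there were 7 of the 35 genes (20%), against 14.4% of all genes. Ifi44, Oas2 and Zbp1 were higher in aged mice, where 6.07% of all genes met this limit, and Gbp3, Gbp2, Iigp1 and Xaf1 were lower, where 8.36% did. The 3 aged mice did not overlap the 3 young mice for 9 of the 35 genes (25.7%), against 21.8% of all genes. To the 7 genes just named this added Ifi27, higher in aged mice, and Ddx58, lower. In all 4 genes were higher without overlap, where 7.92% of all genes were, and 5 were lower, where 13.9% were. Ifi44 passed the filter on dim probes only through the aged mice. Without it the counts were 6 of 34 (17.6%) at an unadjusted p under 0.05 and 8 of 34 (23.5%) without overlap. These shares were read as a description of the list. With 3 mice in each group, the smallest two-sided p of an exact permutation test is 0.1.

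The typical difference was small. The median log2 fold change of the 35 genes was 0.10, against −0.06 over all genes, and the median size regardless of direction was 0.31, against 0.25. The fold change of 24 genes lay within 0.5 of 0 on the log2 scale, and 1 gene, Ifi44, was past 2-fold. For 19 genes the 95% interval of the difference lay within 2-fold in either direction, and for the other 16 it reached past 2-fold, so a larger difference lay within the error there.

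**Figure D1:**
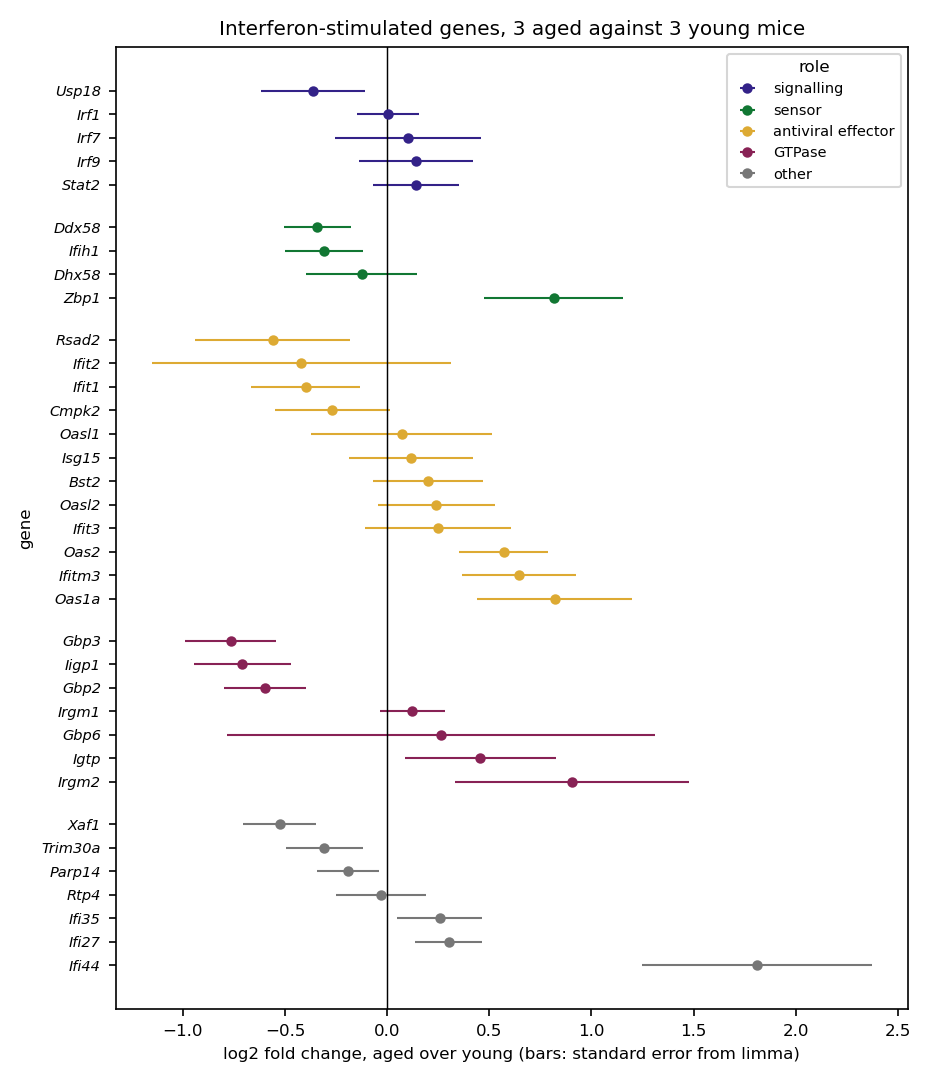
Log2 fold change (aged minus young, horizontal axis) of each of the 35 genes tested, grouped by role, with bars for the standard error from limma (3 mice per group). Most points lie within 0.5 of the line at 0. The point of Ifi44, at 1.81, rests on young values that were not above background.

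The 5 signalling genes of the list lay closest to 0, between −0.36 and 0.14. Of these, Stat2 (0.14), Irf9 (0.14), Irf7 (0.10) and Irf1 (0.004) had higher means in aged mice and Usp18 (−0.36) a lower one, and adjusted p in limma ran from 0.541 to 0.993. The median was 0.10. Irf1 (NM_008390), a transcription factor induced by interferon-gamma, had the brightest probe of the 5. Its signal, in the order of mouse 1, 2 and 3 as for all genes below, was 2.36, 2.13 and 2.37 in young mice and 2.34, 2.27 and 2.26 in aged mice. The groups overlapped, and the 95% interval of the difference, from −0.36 to 0.37, lay within 2-fold. Stat2 and Irf9 encode subunits of the ISRE-binding complex, Irf7 a factor that drives interferon transcription, and Usp18 a protease that removes ISG15 and damps the type I receptor. Irf7 was well above background in 3 young mice and 2 aged mice. The directions of Stat2, Irf9, Irf7 and Irf1 turned under median scaling.

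Among the 4 sensors, the 3 RNA helicases were lower in aged mice and Zbp1 was higher, with a median of −0.22. Ddx58 (NM_172689) encodes RIG-I, a cytosolic receptor for viral RNA. It was −0.16, 0.15 and 0.05 in young mice and −0.21, −0.46 and −0.31 in aged mice. The aged mice were the lowest, though the lowest young and the highest aged mouse differed by less than the spread within either group, and the log2 fold change of −0.34 (SE 0.16) had an adjusted p of 0.399 in limma. Ifih1, which encodes a related RNA sensor, had the brightest sensor probe. Its signal was 0.06, −0.06 and 0.30 in young mice and 0.05, −0.38 and −0.30 in aged mice. Aged mouse 1 lay between the young mice, and the log2 fold change of −0.31 had an adjusted p of 0.492. Dhx58, which modulates both receptors, differed by −0.12.

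Zbp1 (NM_001139519) senses Z-form nucleic acids and can trigger necroptosis. Its signal was −2.77, −3.33 and −2.78 in young mice and −2.70, −2.26 and −1.47 in aged mice, above background on every array. The groups did not overlap, but aged mouse 1 stood beside young mice 1 and 3. The log2 fold change was 0.82 (SE 0.34, adjusted p = 0.344 from limma).

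The antiviral effectors were 15 of the 38 genes, and 12 could be tested. Of these, 8 were higher in aged mice and 4 lower, with a median of 0.16. The oligoadenylate synthetases, which make a second messenger that activates RNase L, were on the higher side. Oas2 (NM_145227) was 0.01, 0.14 and 0.17 in young mice and 0.81, 0.27 and 0.96 in aged mice. Aged mice 1 and 3 were well clear of the young mice, and aged mouse 2 was just above them. The log2 fold change of 0.57 (SE 0.22) had an adjusted p of 0.310 in limma. Oas1a was −1.03, −0.57 and −0.27 in young mice and −0.34, −0.06 and 0.98 in aged mice. Here aged mouse 1 lay between young mice 2 and 3, so the groups overlapped, and the difference of 0.82 had an adjusted p of 0.382. Without aged mouse 3 it was 0.43. The second probe of Oas1a gave 0.68 in the same direction. Oasl1 (0.07) and Oasl2 (0.24), which encode related proteins, overlapped between the groups. The genes of the Oas1 cluster are close in sequence, and which of them a probe binds was not checked here.

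Ifitm3 (NM_025378), a membrane protein that blocks the entry of viruses by endosomes, had the brightest probe among the effectors. Its signal was 3.42, 3.24 and 3.13 in young mice and 4.24, 3.30 and 4.19 in aged mice. Aged mice 1 and 3 were above all young mice, while aged mouse 2 was among them. The log2 fold change was 0.65 (SE 0.28, adjusted p = 0.358 from limma).

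Genes often used as a readout of type I interferon showed no common direction. Isg15 (NM_015783), a ubiquitin-like modifier, was 0.31, 0.54 and 1.36 in young mice and 0.61, 0.84 and 1.11 in aged mice. The highest value was that of a young mouse, and the log2 fold change was 0.12 (SE 0.30, adjusted p = 0.876 from limma). Of the Ifit genes, whose proteins bind viral RNA, Ifit1 differed by −0.40, Ifit2 by −0.42 and Ifit3 by 0.25. Ifit2 was above background in 2 young and 2 aged mice, and its difference rested on aged mouse 2, at −5.63 against −2.56 and −3.56 in the other aged mice. Without that mouse it was 0.44. Ifit3 was high in young mouse 3, at −0.34 against −1.77 and −1.37 in the other young mice, and its probe may also bind the near-identical Ifit3b. Rsad2, which encodes viperin, differed by −0.56, by −0.23 without young mouse 2 and by −0.88 without aged mouse 1. The neighbouring Cmpk2 differed by −0.27, and Bst2, which encodes the virus-tethering protein tetherin, by 0.20. Adjusted p in limma for these 7 genes ran from 0.525 to 0.876.

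The GTPases held the gene with the smallest adjusted p and included genes in both directions. Gbp2 and Gbp3, which encode guanylate-binding proteins, and Iigp1 were lower in aged mice, whereas Igtp, Irgm1, Irgm2 and Gbp6 were higher on average. Gbp3 (NM_001289492) was 0.06, −0.20 and 0.44 in young mice and −0.44, −0.67 and −0.89 in aged mice. The 3 aged mice were the 3 lowest. The log2 fold change was −0.77 (SE 0.22, 95% interval −1.29 to −0.24), with an adjusted p of 0.224 in limma. Gbp2 (NM_010260) was 0.90, 0.97 and 1.21 in young mice and 0.75, 0.35 and 0.19 in aged mice. Aged mouse 1 was closest to the young mice, and the log2 fold change of −0.60 (SE 0.20) had an adjusted p of 0.271. Iigp1 (NM_001146275), an immunity-related GTPase that acts on parasite vacuoles, was −1.68, −1.57 and −1.07 in young mice and −2.12, −1.88 and −2.46 in aged mice. All aged mice were again below all young mice, with a log2 fold change of −0.71 (SE 0.24, adjusted p = 0.271). A second probe also gave −0.71, but it was above background in 3 young mice and only 1 aged mouse. Its groups overlapped, with aged mouse 1 at −3.50 and young mouse 2 at −3.56.

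The higher means of Irgm2, Igtp and Gbp6 rested largely on single mice. Irgm2 (NM_019440) was 2.52, 1.73 and 2.77 in young mice and 2.32, 2.90 and 4.52 in aged mice. Aged mouse 1 was below young mouse 1, and aged mouse 3 was 1.91 above the mean of the other aged mice. The log2 fold change of 0.90 (SE 0.57) had an adjusted p of 0.505 in limma. Igtp (NM_018738), its neighbour, had the brightest mean of the GTPases and was 3.24, 2.43 and 3.26 in young mice and 3.06, 3.10 and 4.14 in aged mice. The same mouse, aged mouse 3, stood above the rest in both genes, and the log2 fold change of Igtp was 0.46 (SE 0.37, adjusted p = 0.597). Without that mouse the difference was 0.27 for Irgm2 and 0.10 for Igtp. Irgm1, a regulator of the other immunity-related GTPases, differed by 0.12. Its second probe, above background in 3 young and 3 aged mice, gave 0.54, and the groups overlapped with both probes.

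Gbp6 (NM_194336) was the most variable gene of the list. Its signal was 2.61, 3.32 and 1.36 in young mice and 5.15, 1.39 and 1.54 in aged mice. Aged mouse 1 was 3.69 above the mean of the other aged mice, and the interval of the difference, −2.23 to 2.75, left its direction unsettled. Without that mouse the difference was −0.96. Its other probe spread far less, with 1.06, 1.33 and 1.17 in young mice and 1.85, 1.31 and 1.03 in aged mice. Aged mouse 1 was highest with both probes. The means differed by 0.26 and 0.21, so the probes matched in the mean and not in the size of the excess in that mouse. Gbp6 and Gbp10 are close in sequence, and which transcripts each probe binds was not checked here.

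**Figure D2:**
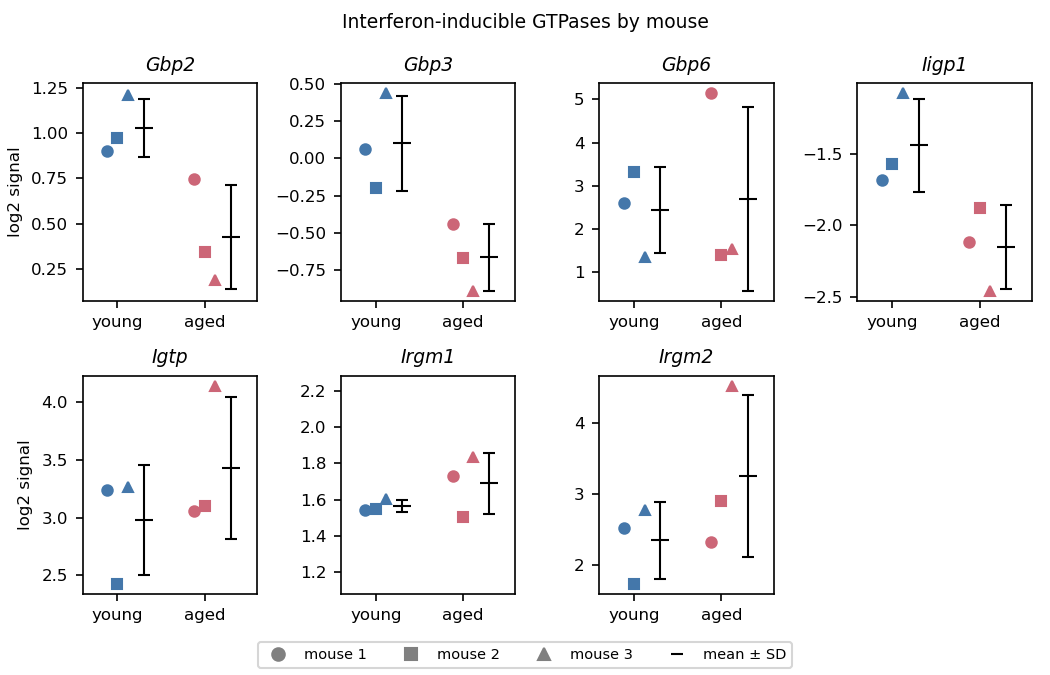
Log2 signal relative to the 75th percentile of the array (vertical axis) of the 7 GTPases in each young and aged mouse, with the mean and SD of each group beside the points. Gbp2, Gbp3 and Iigp1 are lower in all 3 aged mice, whereas single aged mice lift Irgm2 (4.52 in aged mouse 3) and Gbp6 (5.15 in aged mouse 1).

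Lower means in aged mice were also seen for other guanylate-binding protein genes. Of 9 such genes with a probe, Gbp2 and Gbp3 included, 8 were tested and 7 had lower means, with a median log2 fold change of −0.53, while 56.8% of all genes were lower. Outside Gbp2 and Gbp3 it was 5 of 6, and 0 of the 8 had an adjusted p under 0.05 in limma. These genes were put together after their values had been seen, and the count carries no test. Which of these related genes each probe binds was not checked here, so they may not be separate measurements. Gbp5, which is outside the list, was −0.50, −0.12 and −0.33 in young mice and −0.77, −1.11 and −1.38 in aged mice. Its groups did not overlap, and the log2 fold change of −0.77 (SE 0.21) had an adjusted p of 0.204 in limma. Gbp4 differed by −0.51, Gbp9 by −0.55, Gbp7 by −0.37 and Gbp10 by −0.18, with overlap between the groups. The count of 7 lower of 8 was the same under the other scalings of the arrays, 7 of 9 with no filter on dim probes, 5 of 8 with the slide row in the model, and 6 to 8 of 8 with a mouse left out.

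The remaining 7 genes of the list have other or less settled functions. Of these, 3 were higher in aged mice and 4 lower, with a median of −0.03. Ifi44 (NM_133871), a cytoplasmic protein of the interferon response, was −4.92, −4.03 and −4.78 in young mice and −1.47, −3.20 and −3.63 in aged mice. It was well above background in 0 young mice and 3 aged mice, so the young value is a limit, and the gene passed the filter on dim probes only through the aged mice. On that basis it was at least 2.34-fold higher in aged mice, a log2 limit of 1.23 that holds for the processed signals. The adjusted p of 0.244 in limma, which takes the dim young values as measured, adds no support. With normexp background correction in place of the processed signals the log2 difference was 0.41, which is under that limit. Aged mouse 1 was 1.94 above the mean of the other aged mice. With Ifi44 at its limit the median of the 35 genes stayed at 0.10, as it must while that limit lies above it.

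Xaf1 (NM_001037713), which encodes an antagonist of an inhibitor of apoptosis, was −0.15, 0.18 and −0.28 in young mice and −0.50, −0.68 and −0.65 in aged mice. The groups did not overlap, and the log2 fold change of −0.53 (SE 0.18) had an adjusted p of 0.277 in limma. Ifi27 (NM_026790), a mitochondrial protein, had the brightest probe of these genes. It was 5.67, 5.67 and 5.82 in young mice and 5.83, 6.10 and 6.14 in aged mice. Aged mouse 1 barely exceeded young mouse 3, and the log2 fold change was 0.30 (SE 0.16, adjusted p = 0.441). Ifi35 differed by 0.26, Parp14, an ADP-ribosyltransferase, by −0.19, Rtp4 by −0.03 and Trim30a, a ubiquitin ligase of a mouse cluster of related genes, by −0.31, and their groups overlapped.

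**Figure D3:**
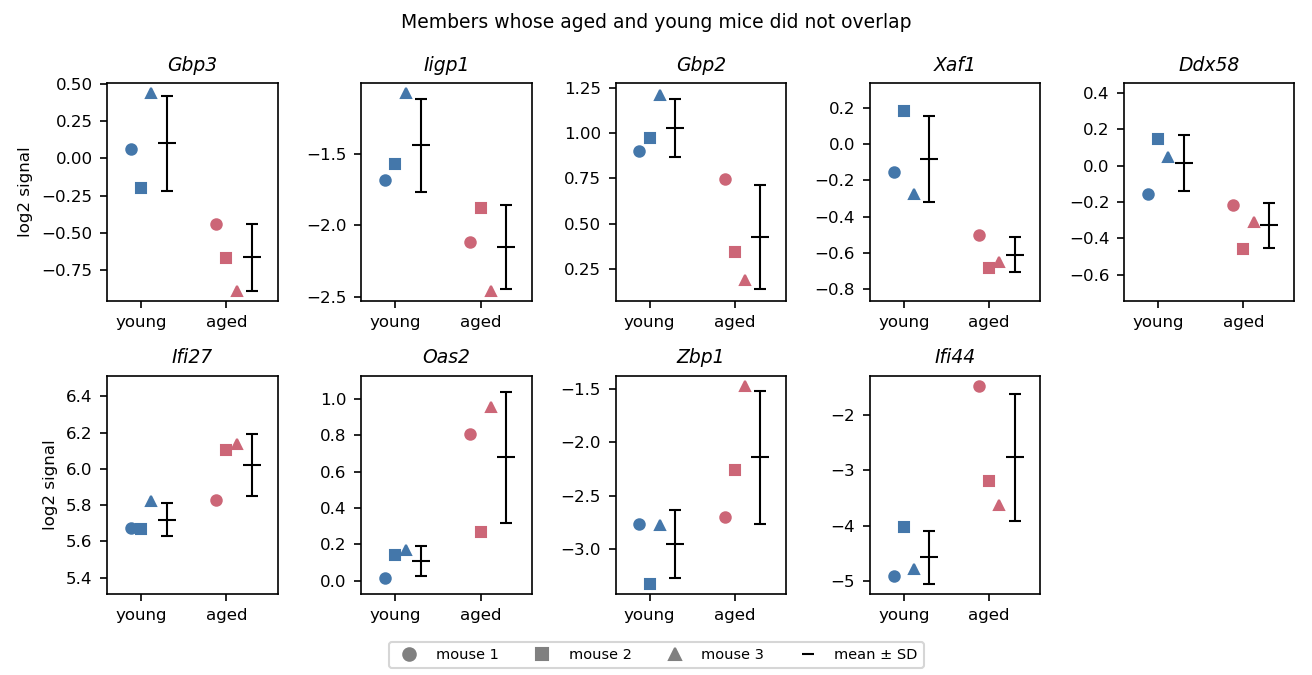
Log2 signal relative to the 75th percentile of the array (vertical axis) in each mouse for the 9 genes whose young and aged mice did not overlap, with the mean and SD of each group. Gbp3, Iigp1, Gbp2, Xaf1 and Ddx58 are lower in aged mice, and Ifi27, Oas2, Zbp1 and Ifi44 are higher, with Ifi44 not above background in any young mouse.

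The list also varied between mice of the same age. In young mouse 3, 28 of the 35 genes (80%) were above the mean of the young group, against 61.1% of all genes. Of the 35, 26 had their highest young value in that mouse, a count not taken over all genes. Young mouse 1 was above the young mean for 8 genes (22.9%), against 42.8% of all genes, and young mouse 2 for 13 genes. In aged mouse 2 only 7 genes (20%) were above the mean of the aged group, against 56.6% of all genes. Aged mouse 1 exceeded it for 20 genes and aged mouse 3 for 22. The median SD of the 35 genes was 0.32 among young mice and 0.29 among aged mice, against 0.23 and 0.27 over all genes, and 21 of the 35 had the larger SD in aged mice. The array of young mouse 3 had the lowest 75th percentile before scaling, 209 against 258 to 310 on the other arrays. This mouse also differed in genes outside the list. Of 11 muscle markers 9 had their highest young value in it, while Mylpf, a fast muscle myosin light chain, was 1.96 there against 4.52 to 5.20 in the other 5 mice.

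**Figure D4:**
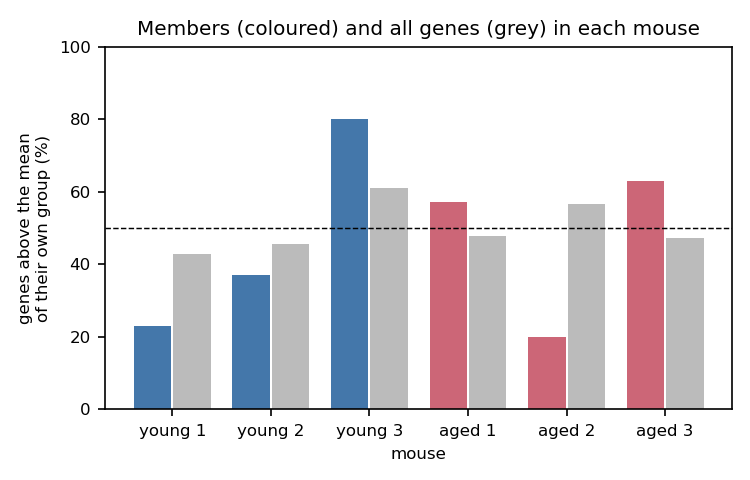
Percentage of genes (vertical axis) whose signal in a mouse was above the mean of its own age group, for the 35 genes of the list (coloured) and for all genes tested (grey). Young mouse 3 (80%) and aged mouse 2 (20%) are farthest from the dashed line at 50%, and aged mouse 2 is farthest from its grey bar.

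Leaving out single mice made no gene of the list pass the threshold. Without young mouse 3 the groups did not overlap for 15 genes (42.9%), against 32.0% of all genes, and without aged mouse 1 also for 15, against 38.4%. The share over all genes rises too, since fewer mice overlap less often. At an unadjusted p under 0.05 there were 5 genes without young mouse 3, 9 without aged mouse 1 and 2 without aged mouse 3, and 12%, 18.1% and 8.86% of all genes in the same fits.

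The arrays lay in different rows of 1 slide. The young mice and aged mouse 1 were in row 1, and aged mice 2 and 3 in row 2, so a fit with the row as a block compares aged mouse 1 with the young mice. In that fit Gbp3 differed by −0.54, Iigp1 by −0.67, Gbp2 by −0.28, Xaf1 by −0.42 and Ddx58 by −0.23. Oas2 differed by 0.70, Zbp1 by 0.26, Ifi27 by 0.11 and Ifi44, not above background in any young mouse, by 3.11. These directions were fixed beforehand, since all these genes were chosen for having no overlap. Irgm2 was −0.02, Igtp 0.08 and Oas1a 0.29 in this fit. Its aged side is 1 mouse, and row and mouse cannot be told apart.

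The rest of the pathway was followed under 116 gene symbols outside the list, of which 110 had a probe and 86 were tested. Tmem173 and Mb21d1, without a matched probe, are older symbols of Sting1 and Cgas, which were tested. Further response genes made up 67 of the symbols. The others were interferons, receptors and kinases, transcription factors, inhibitors and genes listed under nucleic acid sensing. In limma 0 of these 86 had an adjusted p under 0.05. Their means were higher in aged mice for 45 and lower for 41, with a median of 0.02, and 12 (14.0%) had an unadjusted p under 0.05, 6 in each direction, against 14.4% of all genes. Of 11 interferon genes, 10 had a probe, and Ifnl3 alone was above the filter, with a difference of −0.18. Ifnb1, Ifng and Ifna4 were among the 9 dimmer ones.

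The receptors and their kinases had lower means in 6 of 8 genes, with a median of −0.29. Ifnar2, a chain of the type I receptor, was 1.57, 1.45 and 1.55 in young mice and 1.20, 0.91 and 0.99 in aged mice. The groups were apart, and the log2 fold change of −0.49 had an adjusted p of 0.256 in limma. Ifngr2, a chain of the interferon-gamma receptor, was 4.76, 4.66 and 4.73 in young mice and 4.16, 4.43 and 4.23 in aged mice. It was lower in every aged mouse too, by −0.44 (adjusted p = 0.286). Jak2, the kinase bound to that chain, differed by −0.54 and Tyk2, a kinase of the type I receptor, by 0.67, with adjusted p of 0.330 and 0.342. Of 8 transcription factors, 3 were higher and 5 lower.

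Of 6 inhibitors of the pathway, 5 were higher in aged mice, with a median of 0.58, but the groups overlapped for all except Ptpn6. Socs3 (1.51) was 4.80 in aged mouse 3 against 1.93 and 2.34 in the other aged mice. Ptpn6, a phosphatase abundant in blood cells, had the smallest adjusted p of the pathway. It was −2.02, −2.24 and −2.56 in young mice and −1.22, −1.34 and −1.07 in aged mice. The log2 fold change was 1.06 (SE 0.19, adjusted p = 0.108 from limma). Of 11 genes listed under nucleic acid sensing, Trex1, Adar and Samhd1 among them, 9 were higher and 2 lower, with a median of 0.15. The groups overlapped for all 9, and Tlr7 (0.02) and Cgas (0.06) lay near 0. Among 52 further response genes 26 were higher and 26 lower. Besides Gbp5, those with an unadjusted p under 0.05 were Slfn8 (1.03), Slfn2 (1.07), Gm4951 (0.91) and Ifi30 (1.57), higher in aged mice, and Samd9l (−0.45) and Trim34a (−0.53), lower. Ifi30 was −1.74 in young mouse 3 against 0.86 and 0.42 in the other young mice, and Slfn2 −3.53 against −1.88 and −2.38. Slfn8 was above background in 2 young mice and 3 aged mice.

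The samples were whole muscle, in which fewer cells of a type and less RNA per cell cannot be told apart. Of 12 muscle markers 11 were tested and all 11 were above background on every array, which matches the labelled tissue. These 11 were lower in aged mice for 10 genes, with a median of −0.17, and their summed level was 7284 to 8779 times the 75th percentile in young mice and 6089 to 7861 times in aged mice. Of 11 macrophage markers 9 were higher in aged mice, with a median of 0.55, and 7 of them did not overlap, where 7.92% of all genes were higher without overlap. Fcgr1 was among the 9 and the 7, but it was above background in 0 young mice and passed the filter only through the aged mice. Itgam (−0.26) and Csf1r (−0.05) were lower. The summed macrophage level, most of it from these 2 genes, was 44.5 to 52.4 times the 75th percentile in young mice and 51.1 to 53.3 times in aged mice. Cd163 was below the filter. Of 5 neutrophil markers 4 were higher, while Camp (−0.40) was lower without overlap. Retnlg, 1 of the 4, was above background in 0 young mice and also passed the filter only through the aged mice. Their summed levels were 156 to 161 and 169 to 199, most of it from Csf3r, which differed by 0.05, and Cxcr2, Mmp8, Ngp and Ltf were below the filter. S100a8 and S100a9 had adjusted p of 0.0060 in limma and rose by 4.80 and 4.70 on the log2 scale. Fibroblast markers were lower for 6 of 7 genes, and Dpt (0.81) was higher. Their summed level was 387 to 446 in young mice and 181 to 342 in aged mice, most of it from Dcn (−0.85). Endothelial markers were lower for 5 of 8 genes, and Pecam1 (0.52), Tek (0.46) and Emcn (0.06) were higher. Their summed levels were 51.2 to 68.4 and 33.7 to 48.4, most of it from Flt1 (−0.60). All 5 lymphocyte markers tested were lower on average, with a median of −0.19 and summed levels of 6.87 to 7.77 and 5.52 to 6.99, and 7 others, Cd3d and Cd8a among them, were below the filter. Of 5 markers of plasmacytoid dendritic cells 3 were lower (1141 to 1424 and 1011 to 1112, most of it from Cox6a2, which muscle also expresses), and Spib, Ly6d and Klk1 were below the filter. The part of these cell types in the differences of the interferon-stimulated genes was not tested.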

How the data were processed

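The authors deposited 1 Feature Extraction output per array (version 11.0.1.1 per the file headers, 9.5 in the submitters' processing notes). Its intensity values are processed signals, background-subtracted and detrended within the array but not scaled between arrays. Intensities in the deposited series matrix were identical to these. Each array had 62976 spots, 59305 of them not controls. Flagged spots (161 to 212 per array) were left out, spots of a probe were averaged as log2 signals, and the 75th percentile of each array (209 to 310) was subtracted. Between 48.7% and 53.8% of probes were well above background, and no probe was saturated. The number of arrays limits the precision. The labels name separate mice.

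Of 55681 probes, 12 with only flagged spots on some array were left out, and 28325 received a symbol by matching accessions without version to RefSeq transcripts of GRCm38.p6. The array was designed on another build, so no probe coordinates are given. The 38 genes had 47 matched probes. A probe was kept when well above background on at least 3 of 6 arrays, and the brightest kept probe, by its mean over all mice, stood for the gene. The age groups were compared in R 4.3.3 with limma 3.58.1 (lmFit and eBayes). P values were adjusted by Benjamini-Hochberg over 20901 genes, 13844 of them with a symbol, at a threshold of 0.05. The study names no test for the arrays. The fit was tested on simulated data, in which genes changed by 2-fold were not called. For a gene that no array of a group showed above background, a fold is a lower limit, taken against the dimmest probe above background on each array. Summed marker levels are sums of linear signals over the 75th percentile.

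All 38 members are accounted for. Values in every mouse are given for members with an unadjusted p under 0.05 or no overlap and for the brightest of each role, and for others where a statement turns on single mice. Pathway genes are named at an unadjusted p under 0.05. The members and lists were chosen with earlier results of these data known, and the roles are textbook assignments. Promoters were searched with Python 3.11.15. Alternatives were normexp (offset 50, on the median spot signal), quantile normalization, scaling to the median or to the 75th percentile of detected probes, no or a stricter filter on dim probes, the mean of all probes, the series matrix, a mean-variance trend, the slide row or replicate number as a block, and each mouse left out. Slide and scan were the same for all arrays.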

Additional observations from a re-analysis of the deposited data

Results flagged for a closer look

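Zbp1 had a second probe that was not used for the comparison because it was well above background on 2 of 6 arrays, 0 of young and 2 of aged mice. Its signal was −4.67, −4.21 and −4.37 in young mice and −3.09, −3.55 and −2.98 in aged mice. With the dim young values taken as measured, the means differed by 1.21 on the log2 scale, in the direction of the probe used. The groups did not overlap. The young value is a limit, and this difference was not tested. Of 11 further probes of listed genes, 9 went in the direction of the probe used. The further probes of Ifih1 (0.33) and Cmpk2 (0.37), both too dim for the filter, went the other way.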

How the results depend on the processing

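Under the 17 alternatives 0 of the listed genes and 0 of the further pathway genes passed the threshold in limma. At an unadjusted p under 0.05 there were 2 to 9 listed genes, and 8.86% to 18.1% of all genes. The count over all genes depended on the setting: 8 with no filter on dim probes, 35 with probes above background on all 6 arrays, 5 with the replicate block and 1 to 199 with a mouse left out, the extremes being without aged mouse 3 and without aged mouse 1. Same-numbered mice did not deviate together (r of −0.06, −0.27 and 0.03 across genes, none highest with its own number), so the numbers were not taken as pairs. The number of listed genes without overlap was 11 to 15 with a mouse left out, where 26.6% to 38.4% of all genes did not overlap. Their median lay between −0.05 and 0.20. Direction held in every alternative for 19 genes and turned in some for 16. The cause was not tested. It turned under median scaling for Irf1 (−0.14), Irf7 (−0.045), Irf9 (−0.0074), Irgm1 (−0.024), Isg15 (−0.029), Oasl1 (−0.077) and Stat2 (−0.0070), under normexp for Irf1 (−0.085), Irf7 (−0.047) and Oasl1 (−0.025), and with the 75th percentile of detected probes for Rtp4 (0.0056). With the slide row as a block it turned for Ifit2 (0.94), Irf9 (−0.20), Irgm2 (−0.020), Isg15 (−0.12), Oasl1 (−0.53), Rsad2 (0.074), Rtp4 (0.023) and Stat2 (−0.11). With a mouse left out the values ranged from −0.022 to 0.49 for Bst2, −0.37 to 0.060 for Dhx58, −0.96 to 0.92 for Gbp6, −1.10 to 0.44 for Ifit2, −0.053 to 0.66 for Ifit3, −0.074 to 0.045 for Irf1, −0.13 to 0.40 for Irf7, −0.14 to 0.31 for Irf9, −0.10 to 0.43 for Isg15, −0.39 to 0.37 for Oasl1, −0.024 to 0.42 for Oasl2 and −0.18 to 0.19 for Rtp4. Ifit2, Irf7 and Ifi44 gave no value with the stricter filter.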
